A study of Mus musculus with 6 samples.

Results

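Voltage-gated sodium, calcium and potassium channel genes, together with the other potassium channel genes, were followed across the hypothalamic-pituitary-adrenal axis of the mouse in droplet single-cell RNA sequencing libraries. The genes were taken by symbol alone: every symbol that begins with Kcn or Cacna1, or is made of Scn, digits and a final a, with at least 50 unique molecular identifiers (UMIs, 1 per captured mRNA molecule) over the 6 libraries. Of the 27998 genes in the files, 118 matched by symbol and 101 of them reached the minimum. Kcne3, Kcna3, Kcnh4, Kcnj14 and Kcng3 lay just inside it with 52 to 76 UMIs. Kcnk9, Kcnj1, Kcne2, Kcnj15 and Scn4a lay just outside with 45 to 25 UMIs. The files list one main neuronal sodium channel under its older mouse symbol Scn2a1, which the symbol rule does not take, so it was counted among the partner genes.

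The stressed animals were C57BL/6 mice, 10 weeks old, exposed for 21 days to chronic social defeat, a stress model in which a mouse is repeatedly attacked by an aggressive one. The control animals were C57BL/6 mice of the same age without defeat. Of 3 dissected tissues, namely pituitary, adrenal and a block around the hypothalamic paraventricular nucleus (PVN), there was 1 stress library and 1 control library, each from the pooled tissue of 5 mice. A difference between conditions is therefore a difference between a pair of pools: there is no spread between animals and no test, and the 95% intervals given are exact Poisson or binomial intervals that cover counting error only.

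As background, voltage-gated sodium and calcium channels carry the inward currents of the action potential, and calcium entry triggers the release of neuropeptides and pituitary hormones. Potassium channels carry the opposing current: voltage-gated ones end each spike, inward rectifiers and the K2P leak channels (named for their paired pore domains) hold the resting potential, and calcium-activated ones tie firing to calcium. In the outer adrenal cortex, leak potassium channels keep the cells at a negative potential until angiotensin or plasma potassium depolarises them, and calcium entry then drives aldosterone synthesis.

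Cells were grouped with the channel genes and their partners left out of the clustering, and 10 classes were compared: neurons of the dissected PVN block, 6 pituitary endocrine types and 3 adrenal types, each named "-like" from marker genes. The stress and control libraries held 1569 and 1585 neuron-like, 3105 and 3218 somatotrope-like, 529 and 493 lactotrope-like, 251 and 276 corticotrope-like, 95 and 123 melanotrope-like, 207 and 244 gonadotrope-like and 102 and 77 thyrotrope-like cells. In the adrenal they held 1043 and 848 zona glomerulosa-like, 672 and 690 zona fasciculata-like and 41 and 26 chromaffin-like cells. Defining markers were present in each class: Tshb, for example, stood at 43239 and 38336 CPM (UMIs of the gene scaled to a fixed total per class) in thyrotrope-like cells and at no more than 254 CPM in the other pituitary endocrine classes, and Cyp11b2, the aldosterone synthase gene, at 45.0 and 30.5 CPM in zona glomerulosa-like cells and at no more than 4.43 CPM in the other adrenal classes named here. The cortex zones overlapped in markers: Cyp11b1, the corticosterone synthesis gene of the zona fasciculata, stood at 2421 and 2206 CPM in zona fasciculata-like cells and at up to 649 CPM in another adrenal class. Among the 10 leading genes of a cluster, zona glomerulosa-like clusters 1 and 4 and zona fasciculata-like cluster 7 held no marker of their own zone, and no cortex cluster held one of the other zone. Growth hormone mRNA was counted in each of the 6 pituitary endocrine classes. Melanotrope-like cells held 210235 and 219006 CPM of Gh, and its part in their other values was not tested. The libraries shared 10 to 39 cell barcodes per pair. Total UMIs per library ran from 29059956 to 53244403.

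Neuron-like cells held the widest set of channel mRNAs. Of the 101 genes, 79 had at least 50 neuron-like UMIs over both libraries and are called measured there, against 46 in somatotrope-like, 27 in gonadotrope-like, 23 in lactotrope-like, 15 in corticotrope-like, 11 in melanotrope-like and 5 in thyrotrope-like cells. In the adrenal, 23 were measured in zona glomerulosa-like, 18 in zona fasciculata-like and 4 in chromaffin-like cells. A class with fewer UMIs has fewer genes past this minimum: somatotrope-like cells held 36357724 UMIs (stress) and 34366164 (control), neuron-like cells 18156070 and 18647410, and chromaffin-like cells 351930 and 225750. Among the 86 genes measured in at least 1 of the 10 classes, 44 had their highest mean level in neuron-like cells, 10 in chromaffin-like, 9 in zona glomerulosa-like, 6 in gonadotrope-like and 5 in corticotrope-like cells. The remaining classes led for 1 to 4 genes each. The other 15 channel genes were measured in none of the 10 classes. Because the 3' counts take 1 UMI per molecule whatever the transcript's length, levels were not divided by length.

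**Figure D1:**
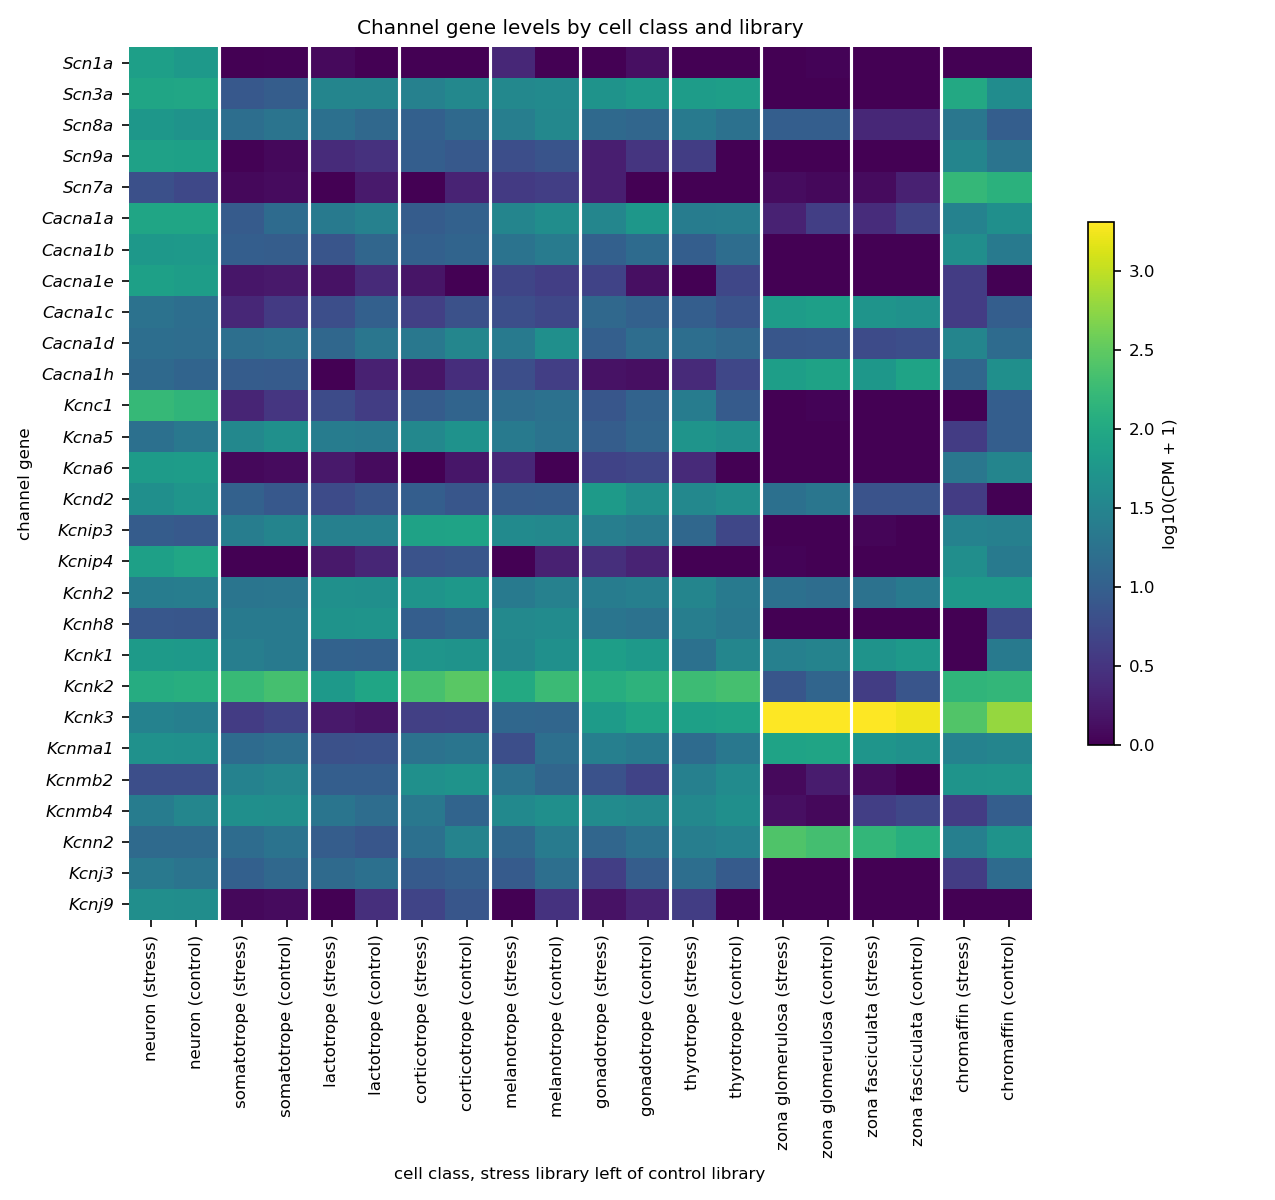
Levels of selected channel genes (rows) in 10 cell classes (paired columns, stress library left of control library), as log10(CPM + 1) on a colour scale. Kcnk3 stands out in the adrenal cortex columns, Kcnk2 runs through neurons, pituitary and chromaffin-like cells, and Kcnc1 and Scn1a are high in neuron-like cells.

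In neuron-like cells of the PVN dissection, sodium channel alpha subunits, which open the spike, were led by Scn2a1, outside the symbol rule, at 234 CPM in the stress library and 224 CPM in the control library. Within the rule, the highest was Scn3a, the subunit best known from embryonic brain, at 87.9 CPM under stress and 90.5 CPM in controls. Scn9a, known from pain-sensing neurons and also a hypothalamic channel, had 77.6 and 75.1 CPM. Scn1a, typical of fast-spiking inhibitory neurons, had 73.1 and 61.8 CPM, and Scn8a, the channel of the axon initial segment and nodes, had 55.9 and 49.7 CPM. Microglia-like cells of the same libraries, which should lack these genes, held 2.67 and 1.87 CPM of Scn3a. The Scn3a level in neuron-like cells was far above that, and the source of the microglia-like counts was not tested.

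Among calcium channels of neuron-like cells, the presynaptic P/Q-type Cacna1a had 88.8 CPM under stress and 87.1 CPM in controls, the R-type Cacna1e 76.1 and 69.0 CPM and the N-type Cacna1b 58.1 and 59.7 CPM. The L-type genes were lower, with 16.5 and 15.0 CPM for Cacna1c and 14.5 and 14.3 CPM for Cacna1d. The T-type genes, whose low threshold serves burst firing, held 19.8 and 16.9 CPM (Cacna1g), 17.6 and 16.3 CPM (Cacna1i) and 12.4 and 10.7 CPM (Cacna1h). The order presynaptic above T- and L-type was the same in both libraries.

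The fast potassium channel Kcnc1, which lets neurons fire at high rates, was the most abundant protein-coding one of the 101 genes in neuron-like cells, with 163 CPM (157 to 169) under stress and 147 CPM (141 to 152) in controls. The leak channel Kcnk2, which responds to stretch, lipids and temperature, followed with 110 and 117 CPM. Kcnip4, an auxiliary subunit of the transient A-type channels, had 75.2 and 91.1 CPM, and its partner Kcnd2, an A-type pore gene, 44.2 and 52.6 CPM. The M-current gene Kcnq3 had 399 and 414 UMIs. Kcnj9 and Kcnj3, subunits of the rectifiers opened by inhibitory G-protein-coupled receptors, had 42.0 and 41.2 CPM and 20.9 and 17.7 CPM. The BK pore gene Kcnma1 had 47.1 and 44.9 CPM. Kcnq1ot1 topped the whole list with 289 and 282 CPM, but it is a long noncoding RNA antisense to the potassium channel gene Kcnq1 and encodes no channel. Whether strand was used in counting was not given in the sources used here, so reads of such antisense symbols (Kcnq1ot1, Kcnmb4os2, Kcnd3os) and of the genes they overlap cannot be told apart with certainty.

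Neuron-like cells formed 11 clusters. The clusters led by Oxt (cluster 14; 43 stress and 105 control cells) and Trh (cluster 19; 19 and 20), peptides of the PVN, were small beside those led by Pmch and Hcrt, peptides of the lateral hypothalamus (cluster 1; 327 and 380), and by Prok2 and Nms, peptides of the suprachiasmatic nucleus (cluster 10; 170 and 92). Between clusters, channel gene levels differed. Kcnmb4, the BK beta subunit of neurons, was at 140 CPM over both libraries in the cluster led by Oxt with Sst and Avp (cluster 14) and at 74.8 CPM in the cluster led by Trh (cluster 19), against a median of 14.9 CPM over the clusters other than cluster 14. Scn1a was highest in the GABA cluster led by Slc32a1 and Gad1 (cluster 4), with 157 CPM against a median of 23.2 CPM elsewhere and 99.5 CPM in the next cluster. Kcnc1 was highest there too, with 285 CPM against a median of 109 CPM and 226 CPM in the next cluster. The oxytocin cluster had the lowest Kcnc1 level, 36.5 CPM.

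Kcnh8, a slowly activating voltage-gated channel gene of the ELK group, had 41.6 CPM in the cluster led by Prok2 and Nms (cluster 10), against a median of 3.26 CPM in the other neuron clusters. Kcnip2 reached 113 CPM in the cluster led by Grp (cluster 11), against a median of 20.9 CPM and 65.7 CPM in the next cluster. Kcnq5 and Kcnb2 reached 79.7 and 125 CPM in the small Sst and Npy cluster (cluster 22; 5 stress and 15 control cells), against medians of 4.77 and 27.7 CPM. Kcnmb2, a BK beta subunit that inactivates the channel, had 52.2 CPM in the Th and Tac1 cluster (cluster 23; 5 stress and 14 control cells), against 2.62 CPM. These are descriptions of clusters of 1 pair of libraries; Kcnmb4 itself was among the 10 leading genes of cluster 14.

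**Figure D2:**
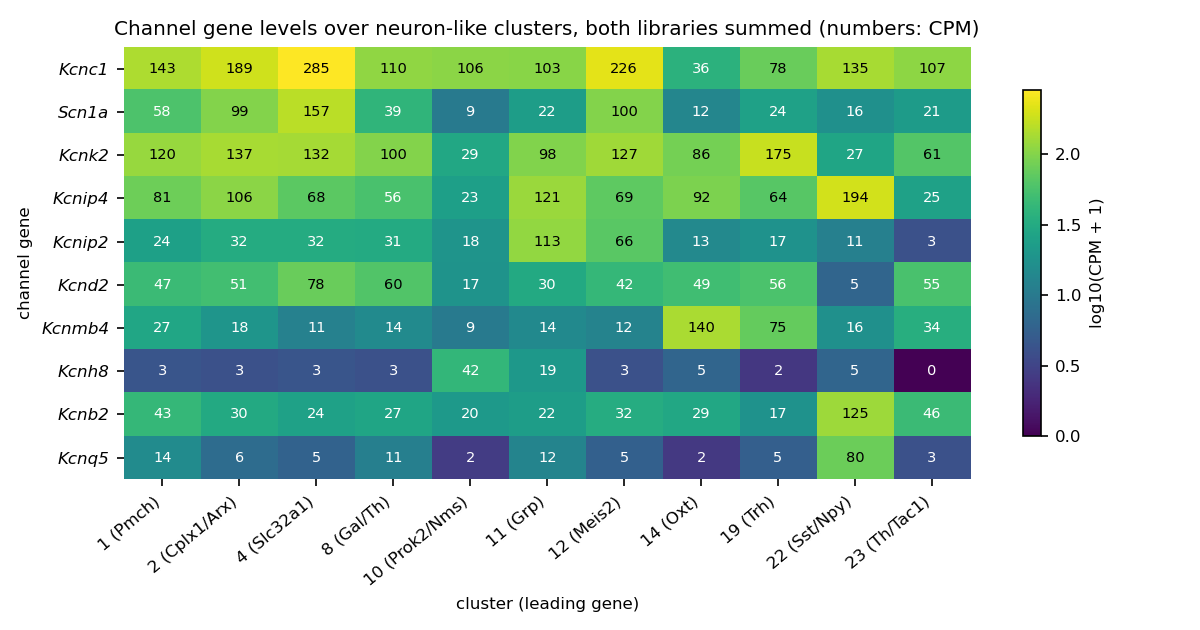
Levels of 10 channel genes (rows) in the 11 neuron-like PVN clusters (columns, named by their leading genes), both libraries summed, with CPM printed in each cell and colour on a log10(CPM + 1) scale. Kcnmb4 peaks in the Oxt-led cluster 14, Kcnh8 in cluster 10, Kcnip2 in cluster 11 and Scn1a and Kcnc1 in cluster 4.

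Between conditions, the channel genes of neuron-like cells were close to level. The median log2 ratio of stress over control over the 79 measured channel genes was 0.07, against 0.02 over all 12925 genes measured in neuron-like cells, and 57 of the 79 (72.2%) were above 0, against 55.3% of all those genes. Past 1.5-fold, 3 were higher in the stress library and 1 was lower; of all measured genes, 1.02% were past 1.5-fold higher and 1.7% past it lower (2.72% either way). The 3 higher genes were low ones: the leak channel Kcnk4 with 54 and 32 UMIs (log2 ratio 0.78, 95% interval 0.14 to 1.47), and the electrically silent subunits Kcns3 with 149 and 95 UMIs (0.69, 0.31 to 1.07) and Kcns1 with 46 and 30 UMIs (0.65, -0.04 to 1.37). The lower one was the opposite-strand transcript Kcnd3os, with 19 and 38 UMIs (-0.94, -1.84 to -0.13). With the ratio in the other PVN cells taken off, the value of Kcns3 changed sign to -0.68.

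By family, every measured member of the fast Kv3 group was above 0, with a median log2 ratio of 0.13 over 4 genes, as were the 3 T-type calcium genes with a median of 0.21. Of the 6 sodium channel genes 5 were above 0 (median 0.12), and of the 3 Kv4 A-type genes 1 was (median -0.15). K2P leak channels had 6 of 7 above 0 (0.11), calcium- and sodium-activated channels 6 of 7 (0.07), Kv2 and silent subunits 7 of 9 (0.07) and both L-type genes (0.08). The remaining families lay nearer level: Kv1 had 2 of 5 above 0 (-0.05), KCNQ 2 of 4 (0.03), the EAG, ERG and ELK group 4 of 6 (0.04), presynaptic calcium channels 2 of 3 (0.03), auxiliary subunits 6 of 9 (0.02) and inward rectifiers 6 of 8 (0.03). The other 3 symbols had 1 above 0 (-0.19). Scn1a stood at 73.1 CPM (69.3 to 77.2) in the stress library against 61.8 CPM (58.3 to 65.5) in the control library, a log2 ratio of 0.24 (0.13 to 0.36). Kcnab1, a beta subunit of Kv1 channels, had 21.8 against 16.5 CPM (0.40, 0.18 to 0.62). On the lower side, Kcnip4 had a log2 ratio of -0.28 (-0.38 to -0.17) and its partner Kcnd2 one of -0.25 (-0.39 to -0.12). With the ratio in the other PVN cells taken off, Scn1a stood at -0.58, Kcnc1 at -0.20 and the T-type gene Cacna1g at -0.38. With cells thinned to 1000 UMIs, Scn1a stood at -0.11.

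Part of these differences moved with the make-up of the neuron class. Kcnmb4 had 23.7 CPM (21.5 to 26.0) under stress and 31.8 CPM (29.3 to 34.5) in controls, a log2 ratio of -0.42 (-0.61 to -0.24). The Oxt-led cluster 14, where it was highest, held 43 stress and 105 control cells and gave 20.7% of the neuronal Kcnmb4 UMIs under stress and 46.4% in controls. With every cluster given the same weight in both libraries, the ratio of Kcnmb4 was -0.02. Under the same weighting that of Scn1a was 0.06, that of Kcnip4 -0.21 and that of Kcns3 0.48; the cluster that leads for Scn1a (cluster 4) held 307 stress and 229 control cells. How far dissection of the PVN set these cell numbers was not tested.

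**Figure D3:**
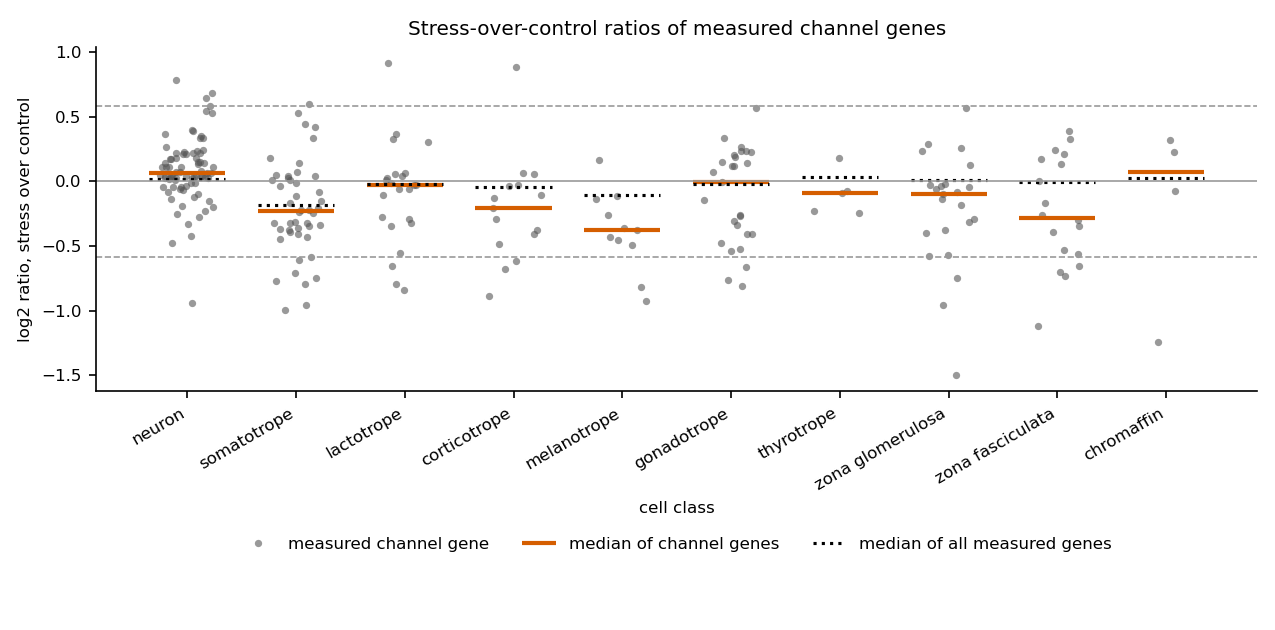
Log2 ratio of stress over control (vertical axis) for each measured channel gene (grey points) in 10 cell classes (horizontal axis), with the median of the channel genes (orange bar), the median of all measured genes (dotted bar) and dashed lines at 1.5-fold. Neuron-like cells cluster around 0, and the channel medians lie furthest below the all-gene medians in melanotrope-like and zona fasciculata-like cells.

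In the pituitary, endocrine cells fire calcium spikes, and Kcnk2 was the protein-coding member of the list with the highest level in each of its 6 endocrine classes. Its level was 222 CPM under stress and 294 CPM in controls in corticotrope-like cells, the source of ACTH. It was 187 and 219 CPM in thyrotrope-like, 168 and 214 CPM in somatotrope-like, 101 and 179 CPM in melanotrope-like, 116 and 139 CPM in gonadotrope-like and 59.2 and 86.7 CPM in lactotrope-like cells. The stress value was the lower one in all 6 classes. Stem or folliculostellate-like cells, which make no hormone, held 258 and 278 CPM.

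The log2 ratio of Kcnk2 was -0.34 (-0.39 to -0.30) in somatotrope-like, -0.55 (-0.79 to -0.32) in lactotrope-like, -0.41 (-0.60 to -0.22) in corticotrope-like and -0.82 (-1.23 to -0.43) in melanotrope-like cells. It was -0.26 (-0.49 to -0.03) in gonadotrope-like cells and -0.23 (-0.61 to 0.16) in thyrotrope-like cells, where the interval held 0. Each of the 5 somatotrope clusters was lower, with ratios between -0.37 and -0.21. The median of all genes measured in somatotrope-like cells was itself -0.18, and Gh stood at 599336 CPM under stress against 564647 CPM in controls. Scaled to that median, Kcnk2 had a ratio of -0.16 there, and -0.22 when hormone mRNAs were left out of the total. With the ratio in all other pituitary cells taken off, it was -0.07 in corticotrope-like, -0.03 in somatotrope-like, 0.09 in gonadotrope-like, 0.12 in thyrotrope-like, -0.22 in lactotrope-like and -0.48 in melanotrope-like cells. The stress value of Kcnk2 was also the lower one in the non-endocrine classes where it was measured. There 3 of 3 ratios were below 0, from -0.44 to -0.11, given here without intervals. Whether the classes of this 1 stress library share a single difference was not tested.

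**Figure D4:**
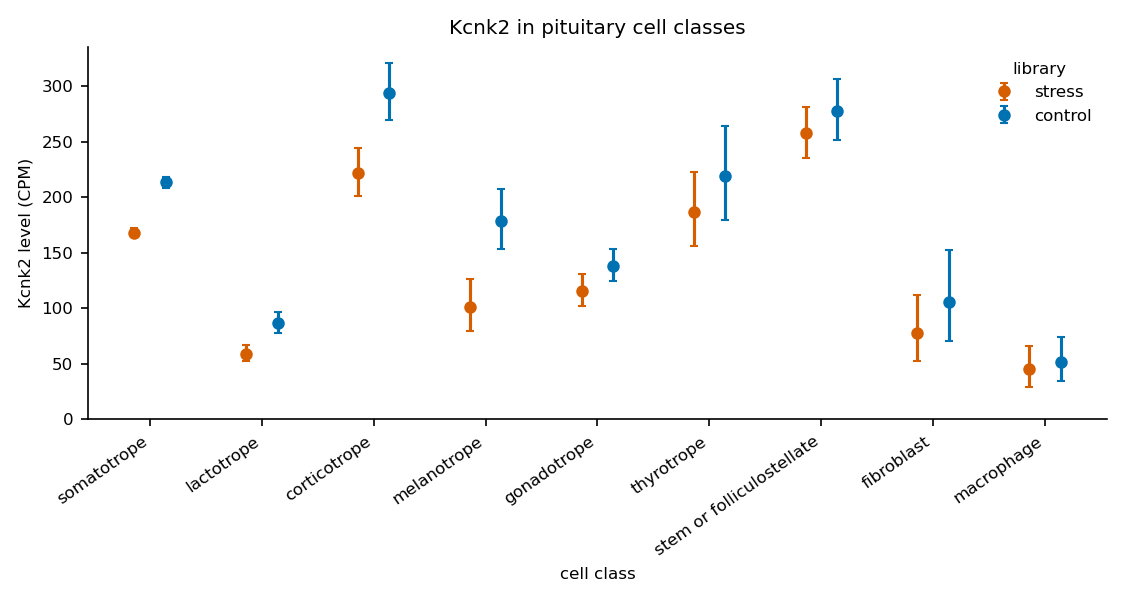
Kcnk2 level in CPM (vertical axis, from 0) in 9 pituitary cell classes (horizontal axis), stress library in orange left of control library in blue, with 95% Poisson intervals that cover counting error only. The stress value is below the control value in every class shown, and the intervals are apart in somatotrope-, lactotrope-, corticotrope- and melanotrope-like cells.

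Because the pituitary results turn on Kcnk2, the 250 bases before its most upstream start are shown, from RefSeq on GRCm38.p6, chr1:189402274-189402523, minus strand. The gene spans chr1:189207930-189402273 in GENCODE, and RefSeq lists 4 starts for it; 3' counts do not tell which was used. Capitals mark CpG dinucleotides.
Kcnk2: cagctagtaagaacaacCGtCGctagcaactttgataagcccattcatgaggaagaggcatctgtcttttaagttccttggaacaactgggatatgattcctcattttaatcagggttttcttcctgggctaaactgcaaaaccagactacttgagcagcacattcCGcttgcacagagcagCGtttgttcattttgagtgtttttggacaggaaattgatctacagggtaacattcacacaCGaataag
This stretch holds 5 CpGs and 42.4% G and C, against medians of 6 and 52.4% over all 32851 promoters of the table. The window of 300 bases around the start held none of the motifs searched on both strands, TATAAA (in 13.6% of all promoters), GGGCGG (35.7%) and TGACGTCA (1.79%). Promoters were listed for 73 of the 101 channel genes; of their 101 entries 4.95% held TATAAA, 49.5% GGGCGG and none TGACGTCA.

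The other pituitary channel mRNAs differed by cell type, though some of those named below were higher in another endocrine class. As means of both libraries, Kcnh2 stood at 54.0 CPM in corticotrope-like and Kcnk1 at 65.2 CPM in gonadotrope-like cells. Kcna5 stood at 47.3 CPM in thyrotrope-like cells. Corticotrope-like cells held Kcnip3, a calcium-binding partner of A-type channels, at 80.1 CPM under stress and 82.2 CPM in controls, Kcnk1 at 51.7 and 49.3 CPM and the BK beta subunit Kcnmb2 at 44.7 and 48.8 CPM. Lactotrope-like cells held Kcnh8 at 48.8 and 50.8 CPM and Kcnh2, the ERG channel gene that sets the resting potential of lactotropes, at 44.8 and 43.5 CPM. Gonadotrope-like and thyrotrope-like cells were the pituitary classes with the acid-sensitive leak channel Kcnk3, at 64.0 and 85.2 CPM and at 75.7 and 80.3 CPM, against 3.27 and 3.40 CPM in corticotrope-like cells. Scn3a was the leading sodium channel gene of gonadotrope-like (48.7 and 61.5 CPM) and thyrotrope-like cells (66.8 and 70.3 CPM). Somatotrope-like cells held Kcnmb4 at 43.6 and 42.3 CPM, together with the opposite-strand Kcnmb4os2 at 29.8 and 29.3 CPM, and the delayed rectifier Kcna5 at 34.7 and 44.8 CPM.

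Somatotrope-like cells had a median log2 ratio of -0.23 over 46 measured channel genes, against -0.18 over all 12019 measured genes. Past 1.5-fold, 1 channel gene was higher and 8 were lower, against 0.882% and 5.77% of all measured genes (6.66% either way). The lowest ratios were those of the L-type gene Cacna1c (49 and 93 UMIs; -1.0, -1.54 to -0.49), the fast channel Kcnc1 (44 and 81 UMIs; -0.95, -1.53 to -0.41) and the A-type gene Kcnd3 (96 and 158 UMIs; -0.80, -1.18 to -0.43). Scaled to the all-gene median, that of Cacna1c was -0.82. Cacna1a, better covered, had 291 against 463 UMIs (-0.75, -0.97 to -0.54). On the higher side stood the sodium-activated channel Kcnt1 (53 and 33 UMIs, 0.59, -0.05 to 1.28), Kcnk10 (81 and 53 UMIs, 0.53, 0.01 to 1.06) and Kcnd2 (355 and 246 UMIs, 0.45, 0.21 to 0.69). Of the 46 channel genes 30.4% were above 0, against 17.6% of all genes measured in somatotrope-like cells. The same shares were 20% against 43.2% in corticotrope-like, 9.09% against 37.8% in melanotrope-like and 48.1% against 47.4% in gonadotrope-like cells. They were 39.1% against 46.7% in lactotrope-like and 20% against 54.6% in thyrotrope-like cells.

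In corticotrope-like cells the median was -0.21 over 15 channel genes, against -0.05 over 7049 genes; 1 channel gene was past 1.5-fold higher and 3 past it lower, against 3.19% and 5.42% of all genes (8.61% either way). Kcnmb4 was the higher one, with 37 UMIs under stress against 19 in controls (0.88, 0.07 to 1.78). The small-conductance calcium-activated channel gene Kcnn2 had 29 against 52 UMIs (-0.89, -1.61 to -0.22) and the L-type gene Cacna1d, known for pacemaking, 37 against 57 (-0.68, -1.32 to -0.06). Each of these rests on under 60 UMIs per library. Cacna1d was below 0 in each of the 5 pituitary classes where it was measured, with ratios from -0.93 to -0.12, though with wide intervals outside somatotrope-like cells; scaled to the all-gene median, the somatotrope-like value was 0.06.

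Melanotrope-like cells had the lowest channel median, -0.37 over 11 genes against -0.10 over 3645 genes; none was past 1.5-fold higher and 2 were past it lower, against 2.58% and 12.5% of all genes (15.1% either way). These were Kcnk2 and Cacna1d (17 and 42 UMIs; -0.93, -1.86 to -0.11). A few cells weighed heavily here: 5 cells held 32.5% (stress) and 33.3% (control) of the Kcnk2 UMIs, and with every cell weighted equally the ratio of Kcnk2 was -0.45. Kcnq1ot1 was at 336 and 474 CPM (-0.50, -0.72 to -0.27). Its ratio was also below 0 in each of the 6 endocrine classes, from -0.50 to -0.02, though scaled to the all-gene median it was 0.01 in both lactotrope-like and corticotrope-like cells.

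Gonadotrope-like cells had a channel median of 0.00 over 27 genes, against -0.02 over 7772 genes; none was past 1.5-fold higher and 3 were past it lower, against 2.21% and 4.95% (7.17% either way). Cacna1a had 32.0 CPM under stress against 56.3 CPM in controls (-0.81, -1.24 to -0.40), the delayed rectifier Kcnb2 17.6 against 30.0 CPM (-0.76, -1.36 to -0.20) and Cacna1d 9.02 against 14.4 CPM (-0.66, -1.54 to 0.13). Kcnd2 had the highest ratio of the class, at 62.2 against 41.9 CPM (0.57, 0.20 to 0.94). With the ratio in other pituitary cells taken off, the value of Cacna1a was -0.22.

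Lactotrope-like cells had a channel median of -0.03 over 23 genes, against -0.02 over 8842 genes; 1 gene was past 1.5-fold higher and 3 were past it lower, against 1.88% and 4.18% (6.06% either way). The lower ones were calcium channel genes, Cacna1b (29 and 46 UMIs; -0.84, -1.57 to -0.15), Cacna1c (24 and 37 UMIs; -0.80, -1.61 to -0.03) and Cacna1d (54 and 75 UMIs; -0.65, -1.19 to -0.13). The higher one was Kcnmb4os2 with 37 and 17 UMIs (0.92, 0.08 to 1.86). Thyrotrope-like cells had 5 measured channel genes with a median of -0.09, against 0.03 over 2679 genes, and none past 1.5-fold either way, against 5.34% higher and 4.67% lower of all genes (10% either way).

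In the adrenal cortex a single leak channel gene dominated. Kcnk3 (chr5:30588170-30625271, plus strand, GRCm38), whose acid-sensitive K2P channel sets the resting potential of cortex cells, stood at 2011 CPM under stress and 2056 CPM in controls in zona glomerulosa-like cells, and at 2042 and 1765 CPM in zona fasciculata-like cells. It gave most of the summed channel level of these classes, 2891 and 2904 CPM in zona glomerulosa-like and 2697 and 2408 CPM in zona fasciculata-like cells. Kcnk3 was found in 1043 of 1043 stress and 847 of 848 control zona glomerulosa-like cells. In neuron-like cells it had 28.5 and 26.1 CPM.

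Kcnk3 mRNA was also counted in adrenal macrophage-like cells, at 328 CPM under stress and 469 CPM in controls. That was 16.2% and 24.3% of the cortex level, beside 12.8% and 21.0% for Star and 12.03% and 18.2% for Cyp11a1, steroid synthesis genes that define cortex cells. Cortex mRNAs were thus counted in macrophage-like cells along with Kcnk3, whose share was the highest of those named. The source of these counts was not tested, and the macrophage values are not read as expression. In adrenal endothelial-like cells Kcnk3 stood at 3.77% and 2.21% of the cortex level, below Star at 7.60% and 5.10%.

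Next in the cortex came Kcnn2, with 251 CPM under stress and 209.9 CPM in controls in zona glomerulosa-like cells and 156 and 119 CPM in zona fasciculata-like cells. Kcnma1, the BK pore gene, had 81.7 and 86.3 CPM and 52.7 and 46.7 CPM in these classes. The T-type gene Cacna1h, whose channel is known to carry calcium for aldosterone synthesis, had 71.0 and 80.6 CPM in zona glomerulosa-like and 56.4 and 83.3 CPM in zona fasciculata-like cells. The L-type gene Cacna1c had 67.5 and 72.2 CPM in zona glomerulosa-like cells, and Cacna1d had 6.75 and 6.92 CPM. The beta subunit Kcnab3 had 50.7 and 52.1 CPM there, and the leak channel Kcnk5 6.53 and 9.69 CPM. Kcnj5, whose human gene is mutated in aldosterone-producing adenomas, had only 5 and 2 UMIs in zona glomerulosa-like cells and 0 in zona fasciculata-like cells.

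Kcnn2, whose channel opens on a rise in calcium inside the cell, was higher under stress in both cortex classes. Its log2 ratio was 0.26 (0.18 to 0.33) in zona glomerulosa-like and 0.39 (0.27 to 0.50) in zona fasciculata-like cells. It was higher under stress in 6 of the 7 cortex clusters, from 0.24 to 0.52 in those 6, and at -0.42 (-1.32 to 0.51) in the cluster led by Abcb1b (cluster 8), where it had 24 and 21 UMIs. With the ratio in the other adrenal cells taken off, Kcnn2 stood at 0.10 and 0.26 in the classes.

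Kcnk3 was near level in zona glomerulosa-like cells and higher under stress in zona fasciculata-like cells. The ratio was -0.03 (-0.06 to -0.01) in zona glomerulosa-like cells, with 0.00, -0.01 and 0.00 in its clusters 0, 1 and 4. In zona fasciculata-like cells it was 0.21 (0.18 to 0.24), with 0.16, 0.33 and 0.19 in clusters 3, 6 and 7. In the Abcb1b-led cluster 8, with 81 stress and 57 control cells, Kcnk3 stood at 1421.5 CPM under stress against 588 CPM in controls (1.27, 1.08 to 1.47), which makes it the cortex cluster with the lowest level in each library. Without that cluster the zona fasciculata-like ratio was 0.20. The difference between zones was not tested.

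Cacna1h differed the other way in zona fasciculata-like cells, with 473 UMIs under stress and 812 in controls and a log2 ratio of -0.56 (-0.73 to -0.40); in zona glomerulosa-like cells the ratio was -0.18 (-0.31 to -0.05), and 0.37 with the ratio in other adrenal cells taken off. By cluster it was lowest in cluster 7, led by Mt2, Cyr61, Gadd45g and Socs3 (-0.88, -1.30 to -0.48), then in clusters 3 (-0.70), 1 (-0.50) and 6 (-0.21). It was near level in clusters 4 (-0.05) and 0 (0.05), and higher in cluster 8 (1.15, 0.16 to 2.38) on 35 and 10 UMIs. Kcnma1 was higher in cluster 3 (0.61, 0.33 to 0.89) and between -0.33 and 0.18 in the others.

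**Figure D5:**
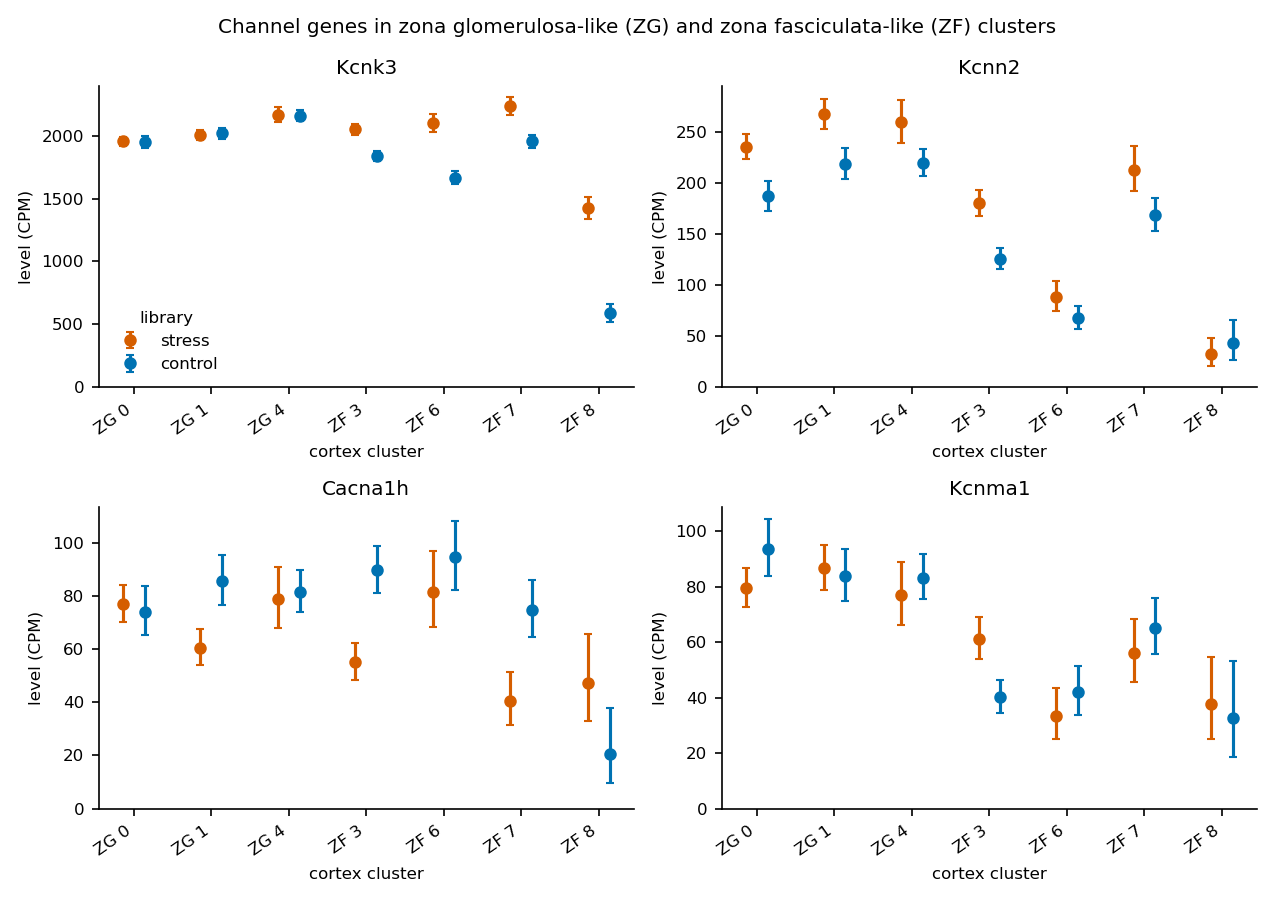
Levels in CPM (vertical axes, from 0) of Kcnk3, Kcnn2, Cacna1h and Kcnma1 in 3 zona glomerulosa-like (ZG) and 4 zona fasciculata-like (ZF) clusters (horizontal axes), stress library in orange left of control library in blue, with 95% Poisson intervals for counting error. Kcnk3 is level in the ZG clusters and higher under stress in the ZF clusters, most in cluster 8, while Kcnn2 is higher under stress in every cluster but 8.

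Over the cortex classes as a whole, zona glomerulosa-like cells had a channel median of -0.10 over 23 genes, against 0.01 over 10680 genes; none was past 1.5-fold higher and 3 were past it lower, against 2.65% and 2.8% of all genes (5.45% either way). The 3 were Cacna1a (15 and 39 UMIs; -1.50, -2.49 to -0.64), the inward rectifier Kcnj12 (41 and 72 UMIs; -0.96, -1.55 to -0.39) and Kcnk2 (90 and 136 UMIs; -0.74, -1.15 to -0.35). Zona fasciculata-like cells had a median of -0.28 over 18 genes, against 0.00 over 10253 genes; none was past 1.5-fold higher and 4 were past it lower, against 2.69% and 4.29% (6.98% either way). Among them were Kcnk2 (25 and 64 UMIs; -1.12, -1.87 to -0.45), Kcnt1 (34 and 66 UMIs; -0.73, -1.38 to -0.12) and Kcnk5 (26 and 48 UMIs; -0.66, -1.42 to 0.05). These 6 values come from genes at or under 11.1 CPM. The zona glomerulosa-like ratio of Cacna1a was -0.30 with cells thinned to 1000 UMIs and -0.78 with the ratio in other adrenal cells taken off. Kcnk2 itself was at 148 and 155 CPM in chromaffin-like cells, whose defining enzyme gene Th, at 1557 and 1045 CPM there, was at no more than 1.25 CPM in the cortex classes. Without the Abcb1b-led cluster the zona fasciculata-like ratio of Kcnk2 was -0.88. The highest zona glomerulosa-like ratio, below 1.5-fold, was that of the M-current gene Kcnq3 (94 and 57 UMIs; 0.57, 0.08 to 1.07); it was -0.59 with cells thinned to 1000 UMIs and -0.41 with the ratio in other adrenal cells taken off. Most zona glomerulosa-like cells were in clusters 0 and 1 under stress (454 and 429 cells), whereas cluster 4, led by Gem, Rgs4, Gadd45g and Btg2, and cluster 1 were largest in controls (296 and 286 cells). Of the measured channel genes 21.7% were above 0 in zona glomerulosa-like cells, against 51.8% of all genes. The same shares were 38.9% against 49.4% in zona fasciculata-like and 50% against 53.2% in chromaffin-like cells.

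Chromaffin cells are the catecholamine cells of the medulla. In chromaffin-like cells, Scn7a, a sodium-sensing channel gene, stood at 162 CPM (123 to 210) under stress and 128 CPM (86.0 to 184) in controls. Kcnk2 stood at 148 and 155 CPM and the voltage-gated Kcna1 at 59.7 and 106 CPM. Kcna1 did not reach the UMI minimum for measured genes in this class. The cluster had a marker score of 13.73 for chromaffin cells and 6.8 for Schwann cells, the runner-up. Scn7a was highest in pituicyte-like cells among all named classes (mean 807 CPM). The part of Schwann cell RNA in the Scn7a and Kcna1 values of chromaffin-like cells was not tested. Of the 4 channel genes measured there, none was past 1.5-fold higher and 1 was past it lower, against 7.47% and 8.65% of 1768 genes (16.1% either way). This was Kcnk3, at 259 CPM under stress against 611 CPM in controls (-1.24, -1.64 to -0.85). Cortex mRNAs in these cells moved with it: Cyp11a1 stood at 6.54% and 31.3% of its cortex level and Star at 8.13% and 37.4%, beside 12.8% and 31.7% for Kcnk3. In the control library 5 of the 26 cells held 83.3% of the Kcnk3 UMIs. The part of cortex RNA in the Kcnk3 value of this class was not tested.

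The 51 partner genes, among them auxiliary sodium and calcium channel subunits, sodium pump subunits and the NALCN leak complex, were counted in the same way. In neuron-like cells 44 were measured and none was past 1.5-fold (2.72% of all genes either way); the median log2 ratio was 0.07. In somatotrope-like cells 2 of 35 were higher and 5 lower (0.882% and 5.77% of all genes; median -0.23), the lower ones including Dpp10, an A-type channel partner (70 and 160 UMIs; -1.27, -1.70 to -0.86), and Fgf12, a sodium channel partner (94 and 180 UMIs; -1.01, -1.39 to -0.65). In corticotrope-like cells 0 of 19 were past 1.5-fold (8.61% of all genes either way). In zona glomerulosa-like cells 2 of 22 were higher and 2 lower (2.65% and 2.8% of all genes). In zona fasciculata-like cells 0 of 19 were higher and 2 lower (2.69% and 4.29%). In lactotrope-like cells 2 of 21 were higher and 3 lower (1.88% and 4.18%). In gonadotrope-like cells 1 of 19 was higher and 1 lower (2.21% and 4.95%), and in melanotrope-like cells 0 of 9 and 2 (2.58% and 12.5%). In thyrotrope-like cells 0 of 8 were higher and 1 lower (5.34% and 4.67%), and in chromaffin-like cells 2 of 5 and 0 (7.47% and 8.65%). The calcium channel subunit Cacna2d1 was at 260 and 239 CPM in zona glomerulosa-like and 249.1 and 219.8 CPM in zona fasciculata-like cells.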

How the data were processed

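The deposited matrices hold UMI counts per gene and cell barcode, unnormalised, from 10x Genomics v2 libraries per the labels' protocols. Cell Ranger 2.1.1 and the build mm10 are named in the submitters' processing notes; the strand setting was not given there. Barcodes were dropped under 200 genes or above 25% mitochondrial UMIs, and those of highest doublet score were left out at 0.8% per 1000 cells. This kept 3459 stress and 3512 control cells of the PVN, 4880 and 4944 of the pituitary and 2742 and 2161 of the adrenal. Cells of a tissue were clustered jointly without the channel and partner genes (Scanpy 1.11.5, 2000 variable genes, 30 principal components, 15 neighbours, Leiden resolution 1), which gave 26 PVN, 20 pituitary and 16 adrenal clusters. Also left out of the clustering were lists of immediate-early, heat-shock, glucocorticoid-response and sex genes. The same held for mitochondrial, ribosomal, haemoglobin and ABC transporter genes. A cluster was named "-like" from at least 3 detected markers. Clusters that also carried another class's markers stayed unnamed (3 in the PVN, 3 in the adrenal). Related classes, such as the cortex zones or tanycytes and astrocytes, were exempt where the other class only had a high marker score. Zona fasciculata-like cluster 7 thus kept its name, with marker scores of 1.65 for that zone and 1.17 for the zona glomerulosa. The rule for unnamed clusters, and the one for erythroid cells, came after inspection of the clusters.

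UMIs were summed per class and library. Levels are CPM of the class with exact Poisson 95% intervals; differences are log2 ratios, stress over control, after 0.5 UMI was added on both sides, with exact conditional binomial intervals. Intervals cover counting error only. PCR duplicates are collapsed by UMIs. Genes with at least 50 UMIs of a class over both libraries count as measured, and 1.5-fold is the size used. The calculation was tested on simulated Poisson counts. These hold no spread between cells or animals, so the intervals were not checked for such spread. Coordinates are from GENCODE on GRCm38, the assembly behind mm10.

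Genes were named by a rule: the 5 highest levels per class, the 5 highest and lowest ratios in neuron-like cells, the 3 highest and lowest in each other class, genes at 10 or more times the median class, and a list of 25 genes. A few others were named after their values were seen: Cacna1i, Cacna1s, Kcnip2, Kcnj3, Kcnj16, Kcnmb1, Dpp10, Fgf12, Scn2a1, Cacna2d1 and the cluster examples. A few genes that the rule names are not reported here. The channel genes, partner list, markers and alternatives were chosen with earlier results of these data known.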

Additional observations from a re-analysis of the deposited data

Results flagged for a closer look

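A pair of genes was past 1.5-fold in opposite directions in different cell classes; neither difference between classes was tested. Kcns1, an electrically silent potassium channel subunit, had a log2 ratio of 0.65 in neuron-like cells and -0.61 in somatotrope-like cells, on 46 and 30 UMIs in the neurons. Kcnt1, the sodium-activated potassium channel gene, had 0.59 in somatotrope-like cells and -0.73 in zona fasciculata-like cells, on 53 and 33 UMIs and on 34 and 66 UMIs. The intervals of Kcns1 held 0 in both classes, as did that of Kcnt1 in somatotrope-like cells. Thinned to 1000 UMIs per cell, neither pair was opposite: Kcns1 stood at 0.01 in neuron-like and 1.64 in somatotrope-like cells, and Kcnt1 at 0.94 in somatotrope-like and 0.28 in zona fasciculata-like cells.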

How the results depend on the processing

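The settings tried were: other minimum UMI sums, median-ratio scaling, totals without hormone, peptide and mitochondrial genes, cells weighted equally, cells thinned to 1000 UMIs, the ratio in other cells of the tissue subtracted, doublets kept, channel genes among the clustering genes, Leiden resolution 0.5 and a 2-fold size. Added after the data had been seen were clusters at equal weight in both libraries and the zona fasciculata-like class without its Abcb1b-led cluster.

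Of the recomputed counts past 1.5-fold, 38 moved, by more than 1.5 times or to 0, and 58 did not. With at least 200 UMIs the count was 1 of 56 in neuron-like (4 of 79 as reported), 3 of 30 in somatotrope-like (9 of 46), 0 of 9 in lactotrope-like (4 of 23), 0 of 3 in corticotrope-like (4 of 15), 1 of 2 in melanotrope-like (2 of 11), 1 of 7 in gonadotrope-like (3 of 27), 1 of 14 in zona glomerulosa-like (3 of 23) and 0 of 9 in zona fasciculata-like cells (4 of 18); of all genes, 0.917% to 5.87% were past it in these classes. With at least 20 UMIs it was 9 of 36 in lactotrope-like (10.6% of all genes), 5 of 23 in melanotrope-like (24.7%), 7 of 37 in gonadotrope-like (12.6%), 5 of 27 in zona glomerulosa-like (8.49%) and 12 of 29 in zona fasciculata-like cells (10.5%). Thinned to 1000 UMIs, which leaves few UMIs per gene, it was 18 in neuron-like (18.3% of all genes), 17 in somatotrope-like (23.1%), 11 in lactotrope-like (32.1%), 5 in melanotrope-like (42.8%), 13 in gonadotrope-like (42.8%), 9 in zona glomerulosa-like (26.9%) and 9 in zona fasciculata-like cells (30.5%). With other cells subtracted it was 15 in neuron-like (8.71%), 1 in corticotrope-like (8.44%), 5 in gonadotrope-like (7.08%), 6 in zona glomerulosa-like (7.19%) and 2 in zona fasciculata-like cells (7.14%). Past 2-fold it was 1 in each of the cortex classes and 0 in neuron-like and in somatotrope-, lactotrope-, corticotrope-, melanotrope- and gonadotrope-like cells. In melanotrope-like cells it was 1 with cells weighted equally and 4 with doublets kept. In gonadotrope-like cells weighted equally it was 6. In zona glomerulosa-like cells it was 5 both with channel genes among the clustering genes and at Leiden resolution 0.5. The cause of these shifts beyond the number of UMIs was not tested.

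The median log2 ratio kept its sign under every setting in neuron-like (0.04 to 0.08), somatotrope-like (-0.34 to -0.04), corticotrope-like (-0.38 to -0.04), melanotrope-like (-0.66 to -0.12) and zona glomerulosa-like cells (-0.30 to -0.022, the last with other cells subtracted). It crossed 0 in lactotrope-like (-0.09 to 0.23; 0.17 thinned, 0.23 with other cells subtracted), gonadotrope-like (-0.27 to 0.24, the last thinned) and zona fasciculata-like cells (-0.31 to 0.13).

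Single log2 ratios past 1.5-fold that changed sign were Kcns3 in neuron-like cells (-0.68 with other cells subtracted) and, thinned, Kcns1 in somatotrope-like (1.64), Cacna1c in lactotrope-like (0.26), Kcnb2 in gonadotrope-like (0.24) and Kcnt1 in zona fasciculata-like cells (0.28). Of the other ratios of single genes, 151 moved and 1220 did not.

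No paired analysis was possible because each group is 1 library, with no replicate to leave out. Depth limits the smaller classes: thyrotrope-like and chromaffin-like cells had 5 and 4 measured channel genes. Free RNA, dissection and animals cannot be told apart from stress with 1 pool per condition.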

Other observations

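Of the 93 channel genes measured in at least 1 of 25 named classes, 31 had their highest level outside neurons and endocrine cells. Kcnj10, the rectifier with which astrocytes take up potassium, stood at 395 CPM under stress and 417 CPM in controls in astrocyte-like cells, and its partner Kcnj16 at 128 and 131 CPM. Kcna1 had 522 and 539 CPM in oligodendrocyte-like cells, where Kcnk13 had 115 and 99.5 CPM. Kcnip3 had 399 and 412 CPM and Kcnd2 150 and 147 CPM in oligodendrocyte precursor-like cells. Kcnj8, the pore of the vascular channel closed by ATP, had 532 and 489 CPM in mural-like cells. Scn7a was at 787 and 826 CPM in pituicyte-like cells and Kcnk1 at 523 and 502 CPM in stem or folliculostellate-like cells.

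Ependymal-like cells held genes best known from muscle. Cacna1s, the L-type pore of skeletal muscle, had 174 UMIs (114 CPM) under stress and 294 UMIs (155 CPM) in controls, a log2 ratio of -0.43 (-0.72 to -0.16), and about 1 CPM in neuron-like cells. Kcnmb1, the BK beta subunit of smooth muscle, had 190 and 175 CPM in the same ependymal-like cells.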
